A study of Mus musculus with 5 samples.

Results

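Npy, Pomc, Cartpt and Tac2 encode the precursors of peptides made by neurons of the arcuate nucleus, which lies just below the ventromedial hypothalamus (VMH). They were taken as the probe sets annotated to these symbols, which gave 5 probe sets for 4 genes out of 6658 genes measured on 5 Affymetrix mouse arrays. Npy, Cartpt and Tac2 have 1 probe set each and Pomc has 2, and all 5 passed the filter on low signals. The arrays are of VMH cut by laser from C57Bl/6 mouse brain sections, with 1 array per group of RNA pooled from 2 or 3 animals. The groups are 7 electroconvulsive shocks (ECS, a seizure evoked by current through the ears under isoflurane) collected 6 h after the last one, 7 shocks collected at 2 h, 1 shock collected at 6 h, 1 shock collected at 2 h, and a sham group that was anesthetized and handled without a shock and collected at 2 h. The sham is matched in time to the 2 h arrays only. One descriptive field of the samples names the PVN, while titles and source fields name the VMH. The design mentions another run on other animals, not analysed here.

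Arcuate neurons read hormones such as leptin, insulin and ghrelin and pass their state to other hypothalamic nuclei, the VMH among them. Npy encodes neuropeptide Y, which drives feeding, and Pomc encodes pro-opiomelanocortin, which is cut into the feeding-suppressing melanocortins and into beta-endorphin. Cartpt encodes the CART peptides, which suppress feeding and are made in many Pomc neurons and also in other hypothalamic nuclei. Tac2 encodes neurokinin B, a tachykinin of the arcuate neurons that pace the release of gonadotropin-releasing hormone. Npy is also a product of cortical and amygdalar interneurons, and the VMH itself is known mainly as a glutamatergic nucleus that receives these peptides.

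The sequences before the transcription starts are shown because seizures activate factors with known DNA sites, and they place each gene in the genome. The windows are the 250 bases upstream of the start in RefSeq (build GRCm38.p6), read 5′ to 3′ on the gene's strand, and all 4 genes had an entry. The Npy window is chr6:49822460-49822709 on the plus strand, Pomc chr12:3954695-3954944 on the plus strand, Cartpt chr13:99900684-99900933 on the minus strand and Tac2 chr10:127724228-127724477 on the plus strand. The Cartpt window lies inside the RefSeq gene model, which spans chr13:99898483-99910179. Capitals mark matches to the motifs named after the sequences.
Npy: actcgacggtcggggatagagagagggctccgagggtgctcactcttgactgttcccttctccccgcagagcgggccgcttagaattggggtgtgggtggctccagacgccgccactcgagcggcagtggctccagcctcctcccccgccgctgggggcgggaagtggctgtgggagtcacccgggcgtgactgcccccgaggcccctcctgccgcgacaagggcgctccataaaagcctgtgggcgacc
Pomc: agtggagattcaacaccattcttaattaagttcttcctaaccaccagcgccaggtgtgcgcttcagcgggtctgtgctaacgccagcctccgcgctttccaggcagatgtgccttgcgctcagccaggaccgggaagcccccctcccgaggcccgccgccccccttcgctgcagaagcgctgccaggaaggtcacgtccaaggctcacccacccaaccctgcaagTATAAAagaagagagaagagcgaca
Cartpt: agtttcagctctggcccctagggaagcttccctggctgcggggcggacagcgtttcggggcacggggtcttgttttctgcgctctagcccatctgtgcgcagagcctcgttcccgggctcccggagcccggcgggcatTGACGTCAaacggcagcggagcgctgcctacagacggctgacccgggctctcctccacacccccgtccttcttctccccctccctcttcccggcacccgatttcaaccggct
Tac2: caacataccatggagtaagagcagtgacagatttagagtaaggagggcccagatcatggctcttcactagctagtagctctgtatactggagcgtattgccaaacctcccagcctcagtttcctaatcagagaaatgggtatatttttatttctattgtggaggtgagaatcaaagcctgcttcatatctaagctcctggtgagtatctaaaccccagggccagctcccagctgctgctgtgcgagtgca
Both strands were searched for the cyclic AMP response element TGACGTCA, its core TGACG (contained in the element), the AP-1 site TGANTCA, the Egr site GCGNGGGCG and the TATA box TATAAA. Cartpt alone held the full cyclic AMP response element, at positions -112 to -105 before its start. That element was in 1.55% of the 32851 windows of this length, and its core was in 17.8%. Pomc held a TATA box at -25 to -20, a motif found in 12.4% of windows. None of the 4 windows held the AP-1 letters (6.75% of windows) or the Egr letters (4.70%). These matches describe the letters of the windows and are not binding sites.

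Centred signals are linear intensities with a pseudocount of 1.2 included, after all arrays were brought to a common median, and signals as the authors gave them are called deposited signals. The median deposited signal per array ranged from 20.3 to 31.6. Relative to sham, the centring removed shifts between -0.13 and 0.51 on the log2 scale. Differences are log2 differences between the centred signals of single arrays, and 2-fold (a log2 difference of 1) was taken as the size for a call. With 1 array per group there is no spread between replicates and no test, so a difference compares these pools of animals. Having so few arrays is what limits precision here. In bulk tissue, fewer cells of a type and less RNA per cell cannot be told apart. The signal ratio of the 3′ to the 5′ Gapdh control, a sign of RNA or amplification length, was 5.38 to 6.67 on 4 arrays and 8.77 at 2 h after 1 shock, the array where Pomc and Cartpt were lowest. The same ratio for the actin control did not set that array apart, at 0.89 against 0.59 to 1.10 on the other 4. The part of RNA or amplification length in those values was not tested. The array of 1 shock at 6 h stood apart from the others by very low cortical and amygdalar genes. Their summed centred signal over the 3 measured genes (Tbr1, Cck and Vip) was 16.5 on that array and between 192.2 and 295.6 on the other 4.

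Npy, the feeding-promoting peptide gene, read highest at 6 h after 7 shocks and lowest at 6 h after 1 shock. Its centred signal was 117 at 6 h after 7 shocks, 40.9 at 2 h after 7 shocks, 29.6 at 6 h after 1 shock, 79.9 at 2 h after 1 shock and 85.9 in sham. The deposited signals in the same order were 136.4, 47.7, 31.5, 60.1 and 70.9. So 2 arrays were low (7 shocks at 2 h and 1 shock at 6 h), and the array of 1 shock at 2 h lay close to sham. In order of level, no neighbouring arrays were 2-fold apart, and the widest step was 1.95-fold, between 1 shock at 2 h and 7 shocks at 2 h. Against sham, Npy differed by -1.54 at 6 h after 1 shock, which is 2.90-fold lower in the shocked pool, by -1.07 at 2 h after 7 shocks, by 0.45 at 6 h after 7 shocks and by -0.11 at 2 h after 1 shock. Without rescaling the arrays, the value at 2 h after 7 shocks was -0.56 and so within 2-fold.

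Between shocked arrays, the sign of the Npy difference turned with time and with the number of shocks. At 6 h, 7 shocks stood 1.98 above 1 shock (3.95-fold), whereas at 2 h, 7 shocks stood at -0.97 relative to 1 shock. From another side, 6 h stood 1.52 above 2 h after 7 shocks and at -1.43 relative to 2 h after 1 shock. Of the 5 Npy differences past 2-fold, 3 use the array of 1 shock at 6 h. Leaving out that array leaves 5 of the 8 comparisons, with 5 of the 10 calls of the 4 genes in place, 2 of them of Npy. Those of Npy are 7 shocks at 2 h against sham and 6 h against 2 h after 7 shocks. On the array with the lowest Npy signal, 1 shock at 6 h, Tbr1, a cortical neuron factor, read 1.90, against 66.5 in sham. The interneuron peptide genes Vip and Cck read 4.07 and 10.5 there, against 51.4 and 74.3 in sham. Sst, another interneuron peptide that arcuate cells also make, read 500.2 on that array, against 412.4 in sham. On the other array with low Npy, 7 shocks at 2 h, Tbr1 read 112.8, Vip 75.9 and Cck 106.9, all above sham. Sst read 371.2 there, below sham. The part of cortical or amygdalar cells in the Npy value was not tested.

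Tac2, the neurokinin B gene, was also highest at 6 h after 7 shocks, but lowest at 2 h after 7 shocks. Its centred signal was 80.9 at 6 h after 7 shocks, 15.0 at 2 h after 7 shocks, 29.3 at 6 h after 1 shock, 28.9 at 2 h after 1 shock and 48.0 in sham. The deposited signals were 93.9, 16.7, 31.2, 21 and 39.1, on both sides of 28.5, the mean signal that a probe set had to reach to be kept. Both arrays of 1 shock lay together below sham, and no step between neighbours in the order reached 2-fold. The widest step was 1.93-fold, between 1 shock at 2 h and 7 shocks at 2 h.

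The time after the last of 7 shocks gave the widest Tac2 difference, 2.43 higher at 6 h than at 2 h, or 5.40-fold. As many as 0.496% of all genes lay as far or further in that direction. At 6 h, 7 shocks stood 1.46 above 1 shock, whereas at 2 h, 7 shocks stood at -0.95 relative to 1 shock. After 1 shock, 6 h and 2 h differed by 0.019. Against sham, Tac2 differed by -1.68 at 2 h after 7 shocks, 3.21-fold lower in the shocked pool. The other differences from sham were 0.75 at 6 h after 7 shocks, -0.71 at 6 h after 1 shock and -0.73 at 2 h after 1 shock, all within 2-fold. Without rescaling, the first of these was 1.24, on a scale where the median of all genes was 0.50, and the 1 shock difference between times lay between -0.038 and 0.55 over the alternatives.

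**Figure D1:**
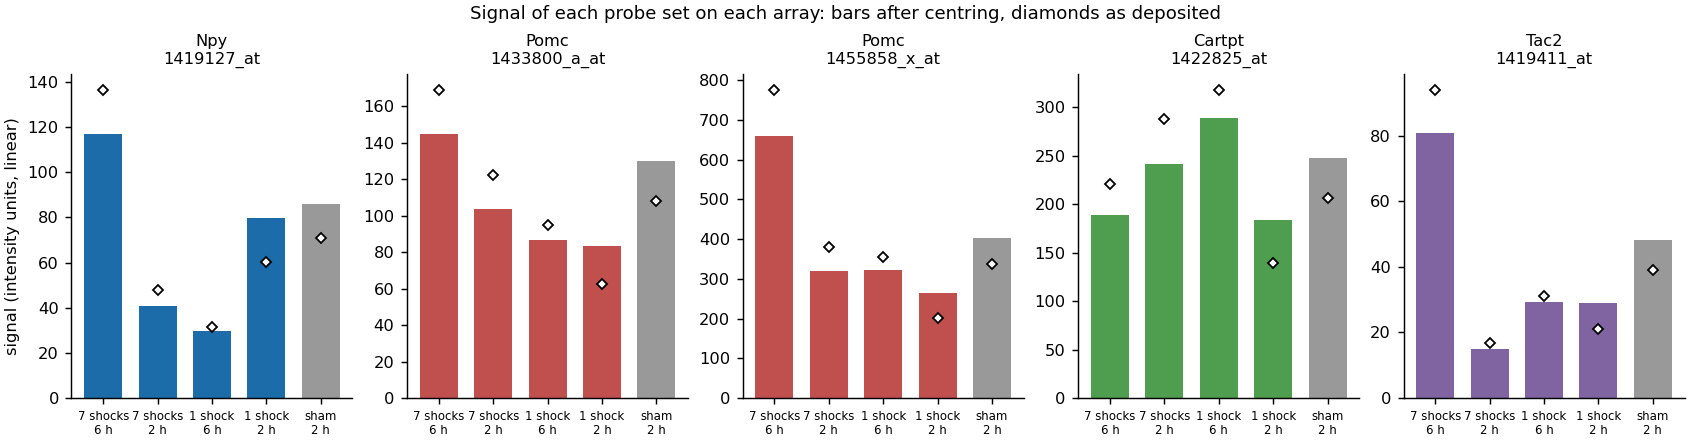
Centred signal (bars) and deposited signal (diamonds) of each of the 5 probe sets, in linear intensity units, with 1 array each for 7 shocks (6 h, then 2 h), 1 shock (6 h, then 2 h) and sham (grey). Npy, Tac2 and both Pomc probe sets are highest at 6 h after 7 shocks, and Cartpt is highest at 6 h after 1 shock, at 288.6.

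Pomc, the melanocortin precursor gene, moved less than Npy and Tac2, and its probe sets put the same arrays at both ends of the order. On the brighter probe set the centred signal was 660.8 at 6 h after 7 shocks, 319.1 at 2 h after 7 shocks, 321.5 at 6 h after 1 shock, 265.2 at 2 h after 1 shock and 404.2 in sham. On the dimmer one it was 144.7, 103.5, 86.8, 83.2 and 129.9 in the same order. Both probe sets were therefore highest at 6 h after 7 shocks, next in sham and lowest at 2 h after 1 shock. The highest signal was 2.49 times the lowest on the brighter probe set and 1.74 times on the other.

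The brighter Pomc probe set stood past 2-fold in 2 comparisons, and the other probe set in none of the 8. At 6 h, 7 shocks against 1 shock gave 1.04 on the brighter and 0.74 on the other. After 7 shocks, 6 h against 2 h gave 1.05 on the brighter and 0.48 on the other. The brighter one carries a suffix (_x_at) that marks probes able to bind other transcripts. Against sham, the brighter probe set was at 0.71 at 6 h after 7 shocks, -0.34 at 2 h after 7 shocks, -0.33 at 6 h after 1 shock and -0.61 at 2 h after 1 shock. The other gave 0.15, -0.33, -0.58 and -0.64 in that order. The 3 values below sham had 1 sign on both probe sets. Without rescaling, the brighter one was at 1.20 for 7 shocks at 6 h (median of all genes 0.50), and its values for 7 shocks at 2 h and 1 shock at 6 h were 0.17 and 0.067, above sham.

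Cartpt, the CART gene and the one with the cyclic AMP response element printed above, stayed within 2-fold in all 8 comparisons on the centred scale. Its centred signal was 188.5 at 6 h after 7 shocks, 241.6 at 2 h after 7 shocks, 288.6 at 6 h after 1 shock, 183.3 at 2 h after 1 shock and 247.8 in sham. It was highest where Npy was lowest, and the highest signal was 1.57 times the lowest. Against sham it differed by -0.39, -0.037, 0.22 and -0.44 in the order of the shocked arrays just given. At 6 h, 7 shocks stood at -0.61 relative to 1 shock, while the other 3 genes were higher by 1.04 to 1.98. After 1 shock, 6 h stood 0.66 above 2 h, where Npy stood at -1.43. Without rescaling, 2 Cartpt differences passed 2-fold, 1.18 for 6 h against 2 h after 1 shock and 1.04 for 7 shocks against 1 at 2 h, where the medians of all genes were 0.59 and 0.64. The differences from sham for 7 shocks had either sign over the alternatives, from -0.47 to 0.093 at 6 h and from -0.097 to 0.47 at 2 h.

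**Figure D2:**
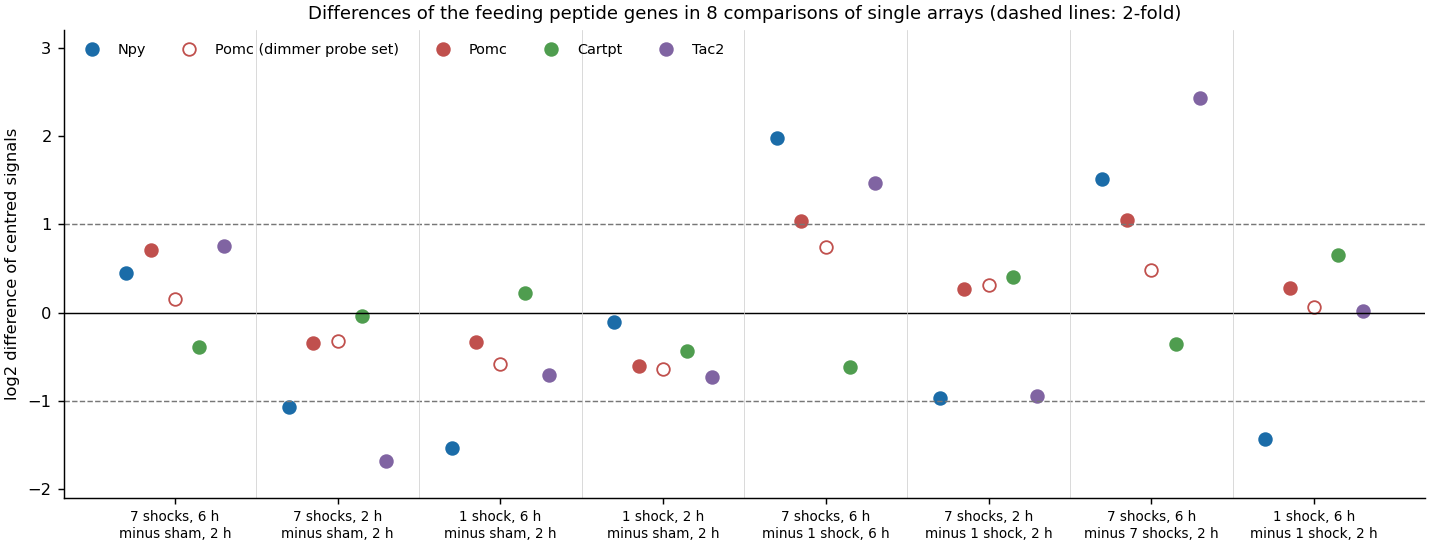
Log2 difference of centred signals for each probe set in the 8 comparisons of single arrays, with 2-fold as dashed lines and the dimmer Pomc probe set as open circles. Npy, Tac2 and the brighter Pomc probe set lie above 1 for 7 shocks at 6 h against both 1 shock at 6 h and 7 shocks at 2 h, while Cartpt lies at -0.61 and -0.36.

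Set against all genes, the 4 peptide genes passed 2-fold most often in the comparisons that use 7 shocks at 6 h and another shocked array. For 7 shocks at 6 h against 1 shock at 6 h, 3 of 4 were higher, with a median of 1.25 against -0.048 for all genes, where 17.6% of genes passed 2-fold and 8.61% did so upward. For 6 h against 2 h after 7 shocks, 3 of 4 were higher (median 1.28, all genes 0.021), with 13.7% of genes past 2-fold and 6.85% upward. These comparisons share the array of 7 shocks at 6 h. In both, Pomc counts as higher on its brighter probe set only (1.04 and 1.05). The other Pomc probe set gave 0.74 and 0.48, within 2-fold. Against sham at 2 h after 7 shocks, Npy and Tac2 were lower, 2 of 4, where 14% of genes passed 2-fold and 6.92% downward. Against sham at 6 h after 1 shock, and for 6 h against 2 h after 1 shock, Npy was the 1 of 4 past 2-fold, in both cases lower. The background there was 15% and 16.1%, or 7.75% and 7.86% downward.

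In the remaining 3 comparisons none of the 4 genes passed 2-fold. The background was 14.7% for 7 shocks at 6 h against sham, 13.1% for 1 shock at 2 h against sham and 14.8% for 7 shocks against 1 at 2 h. Dim genes passed more often. In the dimmest 25% of measured genes, which hold Tac2, 25.9% to 32.8% passed 2-fold per comparison. In the group of 25% next above it, which holds Npy, the share was 17.1% to 21%. It was 6.61% to 12.1% in the group with Cartpt and 2.52% to 4.38% in the brightest group, which holds Pomc. Over the 8 comparisons, 47.3% to 52.0% of calls were higher, and 33.8% to 94.0% without rescaling.

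The array of 7 shocks at 6 h held the highest signal of 3 of the 4 genes and the lowest of none. Over all 6658 genes it held the highest signal of 20.7% and the lowest of 20.8%. Sham held neither end for any of the 4. Within a comparison the 4 genes differed from each other by 0.63 to 2.79 on the log2 scale, with the narrowest range for 1 shock at 2 h against sham, where all 4 were below sham by at most 0.73. The widest range was for 6 h against 2 h after 7 shocks, between Tac2 at 2.43 and Cartpt at -0.36. Over the 5 arrays, whose RNA pools are all that these profiles share, the log2 signals of Pomc and Tac2 correlated at r = 0.82, Npy and Tac2 at 0.75 and Npy and Pomc at 0.60. Cartpt correlated at -0.79 with Npy, -0.37 with Tac2 and -0.26 with Pomc.

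**Figure D3:**
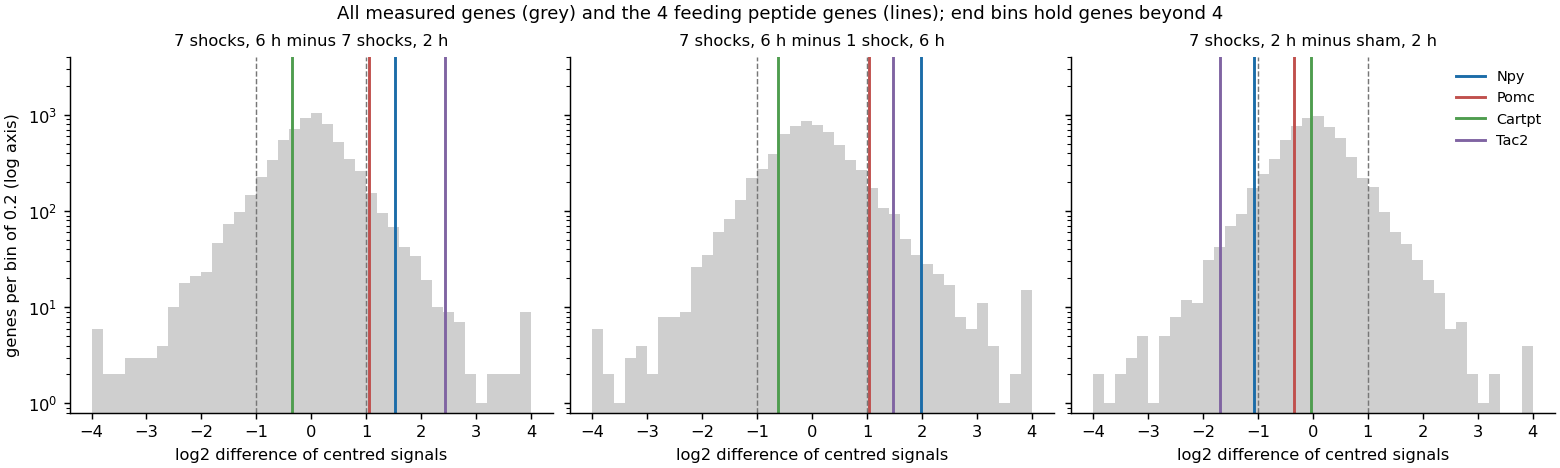
Number of genes per bin of log2 difference (grey, log axis, end bins hold genes beyond 4) for 6 h against 2 h after 7 shocks, 7 shocks against 1 shock at 6 h, and 7 shocks at 2 h against sham, with coloured lines at the 4 peptide genes and dashed lines at 2-fold. Tac2 at 2.43 and Npy at 1.52 lie in the upper tail of the first, and Tac2 at -1.68 in the lower tail of the last.

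Other genes of arcuate neurons were mostly dim. Of 17 such genes, 4 had no probe set with a gene name of their own here (Agrp, Kiss1, Prlr and Bsx), 9 lay below the filter and 4 were measured. No gene with a probe set was at 0 on any array. The deposited signals of the 9 dim genes reached at most 50.6 (the transcription factor Six6) and 21.3 or less for the rest.

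The 4 measured arcuate genes did not move as 1 group. Their summed centred signal was 748 at 6 h after 7 shocks, 543.3 at 2 h after 7 shocks, 755.1 at 6 h after 1 shock, 519.8 at 2 h after 1 shock and 702.3 in sham. Both 6 h arrays were thus above both 2 h shocked arrays, with sham near the 6 h arrays. Sst made up most of the sum on every array, so this order is largely that of 1 gene. After 7 shocks, Sst and Gal were higher at 6 h than at 2 h. Pdyn (65.5 against 68.3) and the brighter Isl1 probe set (58.8 against 73.7) were not. The sham sum includes 200.3 from the brighter Isl1 probe set, where the dimmer one read 35.6. The place of sham among the arrays therefore depends on the choice of Isl1 probe set. The summed centred signal of the 4 peptide genes was 1047, 616.5, 669, 557.3 and 786 in the same order of arrays. Gal, which encodes the peptide galanin, read 56.6, 30.2, 39.5, 29.6 and 29.1, and Sst, which encodes somatostatin, read 567.1, 371.2, 500.2, 362.9 and 412.4. Both had their highest signal at 6 h after 7 shocks, and Gal differed there from sham by 0.96, within 2-fold. Pdyn, the dynorphin gene of the neurokinin B neurons, read 65.5, 68.3, 79.8, 42.2 and 60.6.

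Isl1, a transcription factor that arcuate Pomc neurons need, had probe sets that disagreed. The brighter read 58.8 at 6 h after 7 shocks, 73.7 at 2 h after 7 shocks, 135.7 at 6 h after 1 shock, 85.1 at 2 h after 1 shock and 200.3 in sham. The dimmer read 84.1, 14.8, 87.3, 19.2 and 35.6. Against sham at 6 h after 7 shocks they gave -1.77 and 1.24, opposite in sign. Of the 18 probe sets of the 13 genes that have one, 5 were highest at 6 h after 7 shocks, 7 at 6 h after 1 shock, 4 in sham and 1 on each remaining array. Most of these 18 lay below the filter, and some belong to the same gene. Over all measured genes, 20.7% were highest at 6 h after 7 shocks, 25.9% at 6 h after 1 shock and 16.8% in sham. Past 2-fold against sham, the 4 measured genes of the list had 0 higher in all 4 comparisons, and Isl1 was the 1 lower gene in 3 of them. Between 13.1% and 15% of all genes passed 2-fold in either direction there. How far the arcuate share of the dissected tissue took part in the peptide differences was not tested.

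Markers of the neighbouring tissue were read on the same arrays. Of 10 VMH neuron genes, 7 were measured. Their summed centred signal was 3407 at 6 h after 7 shocks, 3399 at 2 h after 7 shocks, 3896 at 6 h after 1 shock, 2827 at 2 h after 1 shock and 2298 in sham. The list median against sham was 0.46, 0.37, 0.73 and -0.017 in the order of the shocked arrays. In each comparison 2 genes were higher past 2-fold and 0 lower, drawn from the activity-responsive Nptx2 and Bdnf and the PACAP gene Adcyap1. Of all genes, 13.1% to 15% passed in either direction. Nr5a1, Slc17a6, Cbln1 and Gda stayed within 2-fold of sham on every shocked array. At 2 h after 1 shock, where the sum was above sham, their brightest probe sets stood at -0.50, -0.017, -0.18 and -0.86. On the other shocked arrays, in order, Nr5a1 was at 0.46, 0.37 and 0.73 and Slc17a6 at 0.34, 0.20 and 0.34. Cbln1 was at -0.17, 0.039 and 0.46 and Gda at -0.024, 0.25 and -0.23. The place of sham in the sum therefore depends on the genes included. Of 13 genes of the median eminence and of tanycytes, the cells that line the ventricle beside the arcuate nucleus, 3 were measured (Dio2, Crym and Vim). Dio2, which activates thyroid hormone, read 126.2 at 6 h after 7 shocks, 115.1 at 2 h after 7 shocks, 51.2 at 6 h after 1 shock, 212.7 at 2 h after 1 shock and 131.1 in sham. Crym, which encodes a thyroid hormone-binding protein, read 74.9, 66.8, 10.9, 19.4 and 29.4, so both were lowest, as Npy was, on the array of 1 shock at 6 h. At 2 h after 7 shocks, where Npy was also low, Crym stood at 1.18 against sham and Dio2 at -0.19. Vim, the intermediate filament gene of tanycytes and other glia, was higher than sham by 1.10, 1.01, 1.28 and 0.24 on its brightest probe set. Its 3 probe sets disagreed, with ranges of 0.059 to 1.59, 0.74 to 1.70, -0.16 to 1.61 and -0.40 to 0.84 in the order of the shocked arrays.

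Among genes of the paraventricular and supraoptic nuclei, 3 of 5 were measured. Oxt, the oxytocin gene, read 52.1 at 6 h after 7 shocks, 52.7 at 2 h after 7 shocks, 11.5 at 6 h after 1 shock, 27.9 at 2 h after 1 shock and 16.4 in sham. Avp, the vasopressin gene, read 30.3, 46.9, 49.5, 8.21 and 9.89. Of 6 lateral and dorsomedial hypothalamic genes, 2 were measured, and the orexin gene Hcrt was past 2-fold at 2 h after 1 shock, at -1.37 against sham. Of 8 cortical and amygdalar genes, 3 were measured. All 3 were lower than sham past 2-fold at 6 h after 1 shock (7.75% of all genes were), and 0 were in the other comparisons with sham. General neuron genes were measured for 10 of 10 and none passed 2-fold against sham, with list medians between -0.12 and 0.25. Of all genes 13.1% to 15% passed there, but of the brightest 25% only 2.52% to 3%. The sham signals of these neuron genes ran from 104.3 (Rbfox3) to 6290 (Snap25). The widest differences from sham in that list were -0.96 for the nuclear factor Rbfox3 at 6 h after 1 shock and 0.93 for the neurofilament Nefm at 6 h after 7 shocks. For 7 shocks against 1 shock at 6 h, 3 of these 10 were higher past 2-fold (Syt1 1.085, Rbfox3 1.065 and Nefm 1.268) and 0 lower. In that comparison 3 of 3 cortical and amygdalar genes and 2 of 3 tanycyte genes were also higher, beside 8.61% of all genes. For 6 h against 2 h after 7 shocks, 0 genes of these 3 lists passed 2-fold. In that comparison 13.7% of all genes passed in either direction, and 2.58% of the brightest 25%. The part of these other sources in the peptide values was not tested.

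**Figure D4:**
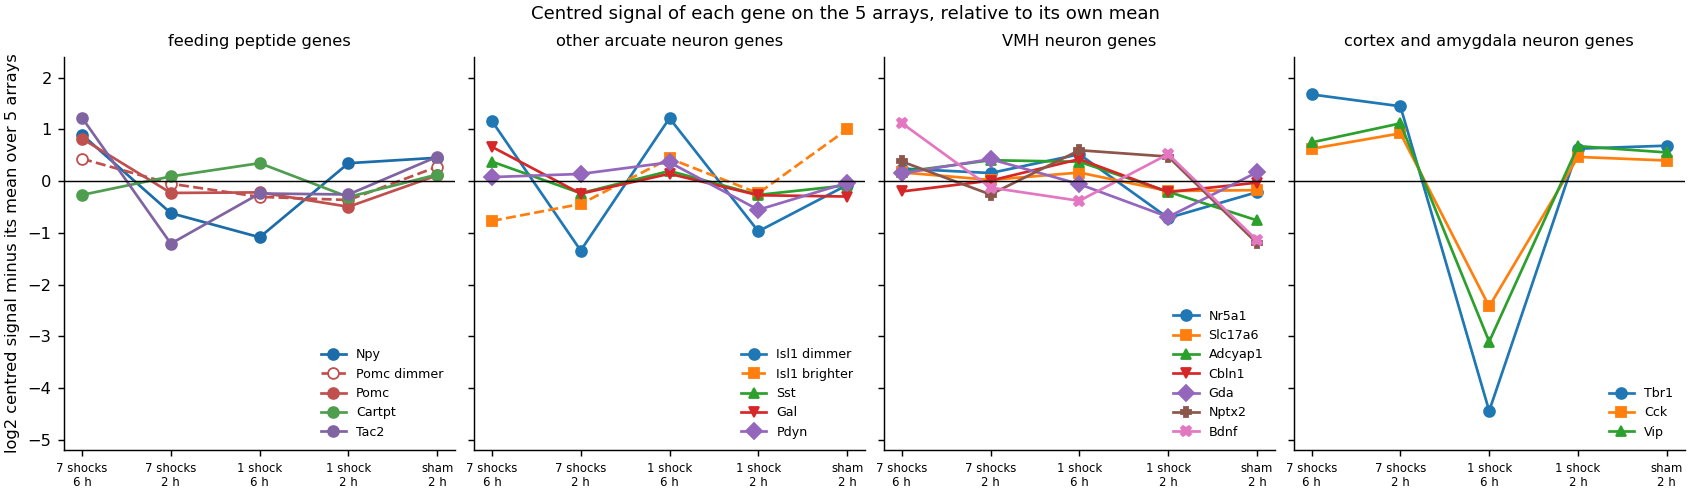
Log2 centred signal of each gene minus its own mean over the 5 arrays, for the 4 peptide genes, the measured arcuate genes, the VMH genes and the cortical and amygdalar genes, with the arrays from 7 shocks at 6 h on the left to sham on the right. Lines join 1 gene or probe set and are no time course. Tac2 and 1 probe set of Isl1 are low at 2 h after 7 shocks, and Tbr1, Cck and Vip are low at 6 h after 1 shock.

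Of 13 genes for receptors of these peptides and their partners, 10 had a probe set and 2 of those passed the filter. Npy1r, a receptor for neuropeptide Y, read 28.6 at 6 h after 7 shocks, 39.1 at 2 h after 7 shocks, 65.5 at 6 h after 1 shock, 25.4 at 2 h after 1 shock and 16.9 in sham. It was highest where Npy was lowest, and against sham it passed 2-fold at 2 h after 7 shocks (1.21) and at 6 h after 1 shock (1.95). Atrn, which encodes attractin, a membrane protein of the agouti-melanocortin pathway in mouse, was higher than sham by 1.70, 1.31, 0.87 and 0.0059 in the order of the shocked arrays. Of 12 hormone and transmitter receptors found on arcuate neurons, 5 were measured, with list medians against sham between -0.62 and 0.19. Htr2c, the serotonin receptor of Pomc neurons, read 59.1 at 6 h after 7 shocks, 16.5 at 2 h after 7 shocks, 17.6 at 6 h after 1 shock, 31.4 at 2 h after 1 shock and 27.5 in sham. Htr1b, the serotonin receptor of Npy neurons, read 28.6, 92.7, 57.8, 105.4 and 80.1, so these receptors had opposite extremes on the array of 7 shocks at 6 h. Cnr1, the cannabinoid receptor gene, was at -1.13 against sham at 2 h after 1 shock and within 2-fold of it on the other arrays.

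Of 9 genes for enzymes and partners that cut and finish the peptides, 8 were measured. Against sham, 1 was higher past 2-fold at 6 h after 7 shocks, 2 were higher at 2 h after 7 shocks, 1 was higher and 1 lower at 6 h after 1 shock, and 0 passed at 2 h after 1 shock. Of all genes, 14.7%, 14%, 15% and 13.1% passed in either direction in these comparisons. The medians of the 8 genes against sham were 0.33, 0.087, 0.21 and 0.16 in the order of the shocked arrays. Pcsk1, the convertase that opens pro-opiomelanocortin, read 129.5 at 6 h after 7 shocks, 167.6 at 2 h after 7 shocks, 108.3 at 6 h after 1 shock, 116.8 at 2 h after 1 shock and 83.0 in sham, with 1.01 at 2 h after 7 shocks as its widest difference from sham. Ctsl, a protease of neuropeptide processing and of lysosomes, was higher than sham by 1.28, 1.43, 1.08 and 0.98. Furin, a convertase of the secretory path, was at -1.02 at 6 h after 1 shock.

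Factors upstream of the peptide genes passed 2-fold mostly on the 2 h arrays. Of 16 genes, 10 were measured. Against sham, 4 were higher and 1 lower at 2 h after 7 shocks and again at 2 h after 1 shock, against 2 higher and 1 lower at 6 h after 7 shocks and 0 at 6 h after 1 shock. The shares of all genes past 2-fold in either direction were 14%, 13.1%, 14.7% and 15% in that order. Fos, the AP-1 subunit, read 25.5 at 6 h after 7 shocks, 75.4 at 2 h after 7 shocks, 23.3 at 6 h after 1 shock, 184.7 at 2 h after 1 shock and 12.6 in sham. Egr1, the zinc finger factor, was higher than sham by 2.10 at 2 h after 7 shocks and 2.53 at 2 h after 1 shock. On the centred scale Npy, Pomc, Cartpt and Tac2 were all below sham on these 2 h arrays, by 0.037 to 1.68, but at 2 h after 7 shocks Pomc was 0.17 and Cartpt 0.47 above sham without rescaling, and Cartpt was 0.052 above it with no filter. Foxo1, which represses Pomc and favours Npy-side neurons, read 41.7, 111.8, 43.3, 115 and 55.7 in the order of the arrays with sham last. Stat3, the leptin signal transducer that induces Pomc, was higher than sham by 1.54 at 6 h after 7 shocks and by 1.31 at 2 h after 1 shock. Ptpn1, the phosphatase that damps leptin and insulin signals, was at 1.63 at 2 h after 7 shocks on its brighter probe set and at 0.73 on the other.

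Among 23 other neuropeptide and granin precursors, 16 were measured, and their medians against sham were 0.51, 0.54, 0.34 and 0.096. The 4 arcuate peptide genes had medians of 0.58, -0.71, -0.52 and -0.52 in that order, and all genes 0.017, 0.0034, 0.066 and 0.0039. The enkephalin gene Penk read 432.2 at 6 h after 7 shocks, 297.6 at 2 h after 7 shocks, 218.4 at 6 h after 1 shock, 258.7 at 2 h after 1 shock and 135.2 in sham, above sham on every shocked array. Npy, Pomc and Tac2 were above sham on 1 shocked array of 4 and Cartpt on 1 of 4.

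Genes with profiles most like each peptide gene were sought among about 2316 genes whose log2 signals had an SD of at least 0.5 over the 5 arrays. Cartpt itself had an SD of 0.28, under that minimum, so each of its matches had a larger SD than its own. For Npy they were the cap-binding factor gene Eif4e3 (r = 0.997), Rasal2 (0.991) and the class I histocompatibility gene H2-K1 (0.989). Eif4e3 read 141.1 at 6 h after 7 shocks, 46.1 at 2 h after 7 shocks, 36.5 at 6 h after 1 shock, 100.9 at 2 h after 1 shock and 99.9 in sham. For Pomc they were Fbxw4 (0.994), Gtf2h4 (0.991) and Top3b (0.987), and for Cartpt Pofut2 (0.992), Eps8l3 (0.985) and Slc35b1 (0.983). For Tac2 they were the retromer gene Vps26a (0.985), Gsta3 (0.982) and the calcium channel gene Cacna1c (0.981). Between 12 and 20 genes reached r of 0.95 for each of the 4, or 0.518% to 0.864% of those compared.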

How the data were processed

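The data are the deposited intensity values of 5 Affymetrix arrays, 1 signal per probe set. MAS5 is named in the submitters' processing notes, and the range of the values shows a linear scale. Its version and scaling target were not stated in those notes. Per the labels' protocols, sections of 7 µm were laser-dissected, 2 ng of RNA was amplified and 5 µg of labelled cDNA was hybridised.

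From the 22690 probe sets, 64 controls, 691 with several gene symbols and 1555 without one were dropped. Of the remaining 20380, 20351 matched a RefSeq gene by gene ID. A pseudocount of 1.2 (the 10th percentile) was added and log2 taken. Genes on probe sets in the top 50% by mean signal over the 5 arrays (10389 probe sets, 6658 genes) were kept, each array was centred on its median, and a gene took its brightest kept probe set. The 8 comparisons have no test. The 4 genes, the 12 other lists and the naming rule (list genes past 2-fold against sham, at most 6 per list, or the 2 furthest) were chosen with earlier results of these data known. Calling was tested on simulated data with little noise and with changes placed only in genes brighter than Npy and Tac2. That run therefore does not speak to dim genes or to the noise between real arrays. The tools were Python 3.11.15, numpy 2.4.6, pandas 2.3.3 and matplotlib 3.10.9. The 9 alternatives are given in the closing section.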

Additional observations from a re-analysis of the deposited data

Results flagged for a closer look

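For 5 results, the same contrast had opposite signs in its 2 settings, with 1 array behind each value, and the difference was not tested. For Npy, 7 shocks against 1 shock gave 1.98 at 6 h and -0.97 at 2 h, a difference of 2.95, and 6 h against 2 h gave 1.52 after 7 shocks and -1.43 after 1 shock, which is the same 2.95 by construction. For Tac2, 7 shocks against 1 shock gave 1.46 at 6 h and -0.95 at 2 h, a difference of 2.41. For Cartpt the contrast ran the other way, with 7 shocks against 1 at -0.61 at 6 h and 0.40 at 2 h, and with 6 h against 2 h at -0.36 after 7 shocks and 0.66 after 1 shock, a difference of -1.01 for both.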

How the results depend on the processing

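Of the 10 differences past 2-fold among the 4 genes, 6 stayed past it in the same direction under each alternative run. Npy and Tac2 were not measured in the top 25% by mean signal, so they have 8 alternatives and not 9. Of 272 values under the alternatives, 260 kept their side of 2-fold, and no value past 2-fold changed sign. Without rescaling, Npy was at -0.56 for 7 shocks at 2 h against sham and at -0.91 for 6 h against 2 h after 1 shock, while 4 differences passed 2-fold: for 7 shocks at 6 h against sham Pomc at 1.20 and Tac2 at 1.24, and for Cartpt 1.04 for 7 shocks against 1 at 2 h and 1.18 for 6 h against 2 h after 1 shock. With no filter, Npy was at -0.98 for 7 shocks at 2 h against sham and Pomc at 0.94 for 7 shocks against 1 at 6 h. Pomc for 7 shocks against 1 at 6 h was 0.89 by the mean of its probe sets and 0.74 without the cross-hybridising probe sets, and for 6 h against 2 h after 7 shocks 0.77 and 0.50. The first of these settings averages both Pomc probe sets, and the second keeps only the dimmer one. In the main processing the dimmer probe set gave 0.74 and 0.48 in these comparisons. Gene calls summed over the 8 comparisons were 3946 higher and 3974 lower, against 8786 and 2491 without rescaling, 13428 and 13732 with no filter (12393 genes) and 962 and 1033 in the top 25% (3499 genes). The share of calls that were higher ranged over comparisons from 47.3% to 52.0%, and from 33.8% to 94.0% without rescaling, where the median of all genes lay between -0.13 and 0.64. Calls against sham summed over the 12 lists, with a gene on more than 1 list counted on each, numbered 64, against 100 without rescaling, 165 with no filter and 25 in the top 25%. Leaving out an array removes its comparisons, and of the 10 calls 4 remained without 7 shocks at 6 h, 5 without 7 shocks at 2 h, 5 without 1 shock at 6 h, 9 without 1 shock at 2 h and 7 without sham. No paired analysis was possible because each group has 1 array.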
